A study of Rattus norvegicus with 287 samples.

Results

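Brain gene expression was compared between lean Zucker rats given peripheral focused ultrasound (pFUS) over 7 weeks and lean Zucker rats given a sham, in 10 of the 287 libraries of the series. The members were the 5 libraries titled as pFUS brain and the 5 titled as control brain at 7 weeks in lean animals. All rats were male, and the labels state no ages. pFUS was aimed at the porta hepatis, the entry of vessels and nerves into the liver, for 3 minutes on each day of treatment. The ultrasound frequency was 1.1 MHz, with 150 cycles in a burst, a burst period of 500 µs and pulses of 200 mV. Sham rats were placed under isoflurane like the treated ones and received no energy. The Zucker line is known for a leptin receptor mutation that makes homozygous animals obese, and the lean animals serve as its non-obese counterpart. The same contrast was available in obese Zucker Diabetic Fatty (ZDF) males, 5 pFUS and 5 control libraries at 7 weeks. These obese libraries were in the same fit as the lean ones, so its filter, scaling and estimate of the spread rest on both. A fit on the lean libraries alone is given as an alternative. The obese contrast itself is used here only for comparison with the lean difference. The sample labels name the tissue as brain and the design text of the series lists hypothalamus. Libraries are numbered in the labels, control 11 to 15 and pFUS 16 to 20 in lean rats. No label states that each is a separate animal, so p-values measure the spread between the libraries of the fit.

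The hypothalamus is known to read hormones and nerve signals from the body and to set feeding, fluid balance, body temperature and pituitary secretion. Its magnocellular neurons make vasopressin and oxytocin, its arcuate neurons make feeding peptides such as the products of Pomc and Agrp, and its lateral part holds the melanin-concentrating hormone and orexin neurons. The nerve plexus of the porta hepatis carries sensory fibres that reach the brainstem and, through it, the hypothalamus.

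Lean totals lay between 9193634 and 12972994 counts per library. Levels are given as CPM, the count of a gene scaled to a common library total, and differences as log2 fold changes of pFUS over control with their standard error. Control 11 and pFUS 19 stood apart from the other lean libraries, with a median Pearson r of log2(CPM + 1) to them of 0.973 and 0.950 against 0.985 or more for the other 8. Syt1, the synaptic vesicle calcium sensor that marks nervous tissue, lay between 229 and 1793 CPM in the 31 brain libraries of the series and at most at 17.7 CPM in the 256 libraries of other tissues, so every library was brain by this marker.

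Hypothalamic peptide genes were well detected in only some of the libraries. Avp (vasopressin, ENSRNOG00000021229) was at 30.9, 188, 0.343, 0.636 and 0.489 CPM in controls 11 to 15 and at 230.2, 272, 0.720, 7.88 and 1.23 CPM in pFUS 16 to 20. Oxt (oxytocin, ENSRNOG00000021225) was at 10.4, 176, 0.514, 0 and 1.55 CPM in the controls and 224, 213, 0, 11.8 and 1.00 CPM with pFUS. Control 12 and pFUS 16 and 17 were high for both, control 11 and pFUS 19 were intermediate, and the other 5 were at or near 0. Pmch, the melanin-concentrating hormone precursor, had the same division, at 31.9, 81.5, 0.686, 0 and 0.570 CPM in controls and 224, 74.6, 1.08, 7.64 and 0.617 CPM with pFUS. Hcrt, the orexin precursor, was at 12.2, 8.04, 0, 0.318 and 0.0814 CPM in controls and 28.1, 5.33, 0.0900, 0.936 and 0.462 CPM with pFUS. Avp, Oxt and Pmch were each under 2 CPM in 3 of 5 controls (13, 14 and 15) and in 2 of 5 pFUS libraries (18 and 20), and the same held for 3 of 5 obese controls and 2 of 5 obese pFUS libraries. Avp, Oxt and Hcrt were named after their values were seen, as genes that define hypothalamic tissue.

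Genes of other brain regions were present in the same libraries. The 10 genes of a cortex and hippocampus list summed to 2547, 562, 1665, 1748 and 858 CPM in controls 11 to 15 and to 447, 371, 1055, 564 and 691 CPM in pFUS 16 to 20. Their sum was lowest in control 12 among the controls and in pFUS 16 and 17 among the pFUS libraries, the same 3 libraries in which Avp and Oxt were highest. The 6 striatal genes summed to 759, 405, 242, 331 and 814 CPM in controls and 545, 1145, 196, 1558 and 758 CPM with pFUS, lowest in pFUS 18 and control 13. The 22 hypothalamic transcription factors summed to 17.3, 58.6, 9.25, 6.15 and 19.4 CPM in controls and 50.7, 43.9, 17.2, 24.8 and 28.6 CPM with pFUS. These sums did not follow the peptides in every library. Control 15, low for the peptides, was above control 11, and pFUS 20, also low for them, was above pFUS 19. The tissue is therefore called lean brain here. Results are given with all 10 libraries and, for some lists, without the 5 that lack the 3 peptides. Leaving out those 5 keeps controls 11 and 12 against pFUS 16, 17 and 19. Both libraries that stood apart, control 11 and pFUS 19, are among those kept. In bulk tissue, fewer cells of a type and less RNA per cell cannot be told apart.

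**Figure D1:**
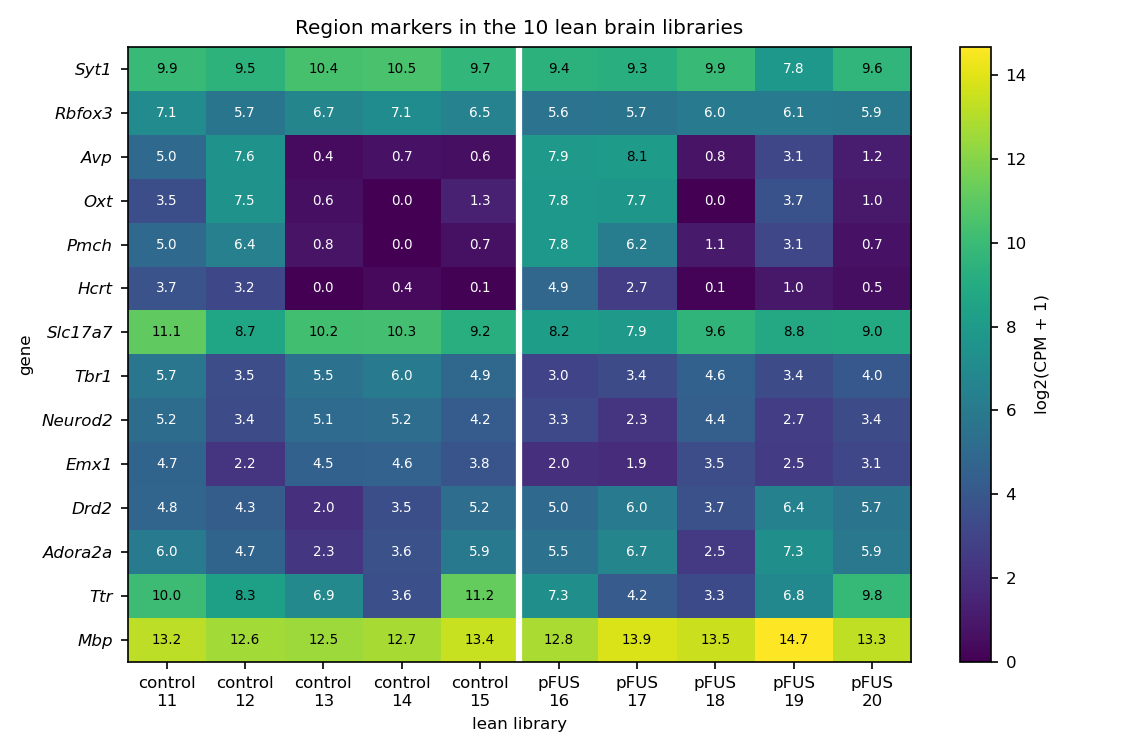
Level of region marker genes in each lean brain library, as log2(CPM + 1) in colour and in digits, with controls 11 to 15 on the left and pFUS 16 to 20 on the right. Avp, Oxt and Pmch are under 2 CPM in controls 13, 14 and 15 and in pFUS 18 and 20, while Syt1 is 229 CPM or more in all 10.

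Avp and Oxt are neighbouring genes that moved together over the 10 libraries, and their upstream windows are shown because these genes carry the division between libraries. The sequences are RefSeq windows on GRCr8 that end at the base before the annotated start, Avp on the minus strand of chr3:138248523-138248772 and Oxt on the plus strand of chr3:138235504-138235753. Capitals mark an E-box CACGTG in the Avp window and the nuclear receptor half-site AGGTCA, on either strand, in the Oxt window. The E-box is its own reverse complement and occurs in 5.59% of 33469 windows of this length, and the half-site in 14.1%. The E-box is absent from the Oxt window and the half-site from the Avp window, and the marked motifs do not overlap.
Avp: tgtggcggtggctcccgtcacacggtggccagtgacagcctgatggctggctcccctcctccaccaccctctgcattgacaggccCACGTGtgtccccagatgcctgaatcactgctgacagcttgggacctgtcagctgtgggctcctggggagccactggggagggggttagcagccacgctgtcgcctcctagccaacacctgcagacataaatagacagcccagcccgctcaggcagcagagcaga
Oxt: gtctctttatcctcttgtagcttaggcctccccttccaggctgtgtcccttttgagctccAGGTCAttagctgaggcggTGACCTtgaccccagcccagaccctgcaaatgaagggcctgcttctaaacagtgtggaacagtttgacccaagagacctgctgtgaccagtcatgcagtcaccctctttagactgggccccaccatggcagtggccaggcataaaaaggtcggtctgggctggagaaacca
A match is a description of the letters in the window. The log2 fold change of Avp was 1.19 ± 1.73 with a 95% interval of -2.43 to 4.82, and that of Oxt was 1.24 ± 1.80 with an interval of -2.52 to 5.00, so a difference of either sign was within the spread of these libraries.

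No gene passed an adjusted p of 0.05 for pFUS in lean brain: 0 of 14791 genes (0%) in edgeR's quasi-likelihood test with Benjamini-Hochberg adjustment, and the smallest adjusted p was 0.745. At an unadjusted p under 0.05 there were 985 genes (6.66%), 348 higher with pFUS (2.35%) and 637 lower (4.31%). With 1 library left out, 148 were higher and 351 lower without control 14, and 629 higher and 1042 lower without control 12. The lean shares given with the lists below are those of the fit on all 10 lean libraries. List counts with libraries left out therefore have another share over all genes. The median log2 fold change over all genes was 0.0028 and 50.5% were above 0. The median half-width of the 95% interval was 0.57 on the log2 scale, which is the size of difference that 5 libraries against 5 could bound for a typical gene. The 2 groups did not overlap in 82 genes (0.554%), 50 higher with pFUS (0.338%) and 32 lower (0.216%).

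DESeq2, and edgeR on the lean libraries alone, called a few genes. DESeq2 called 3 of 20954 genes, with 1247 at an unadjusted p under 0.05, and edgeR on the 10 lean libraries called 1 of 14211, with 636. The DESeq2 calls were Cacna1g, Myh9 and LOC100910130. Myh9, a non-muscle myosin heavy chain, was listed at 0 in 9 of the 10 lean libraries and at 28.2 CPM in pFUS 20. LOC100910130 was at 6.35 and 18.1 CPM in pFUS 16 and 19 and at 0 in the other 8. Cacna1g, the T-type calcium channel subunit that supports burst firing, had the smallest unadjusted p in edgeR. Its level was 131, 97.8, 134, 135 and 129 CPM in controls and 108, 83.8, 82.3, 66.2 and 86.3 CPM with pFUS, and pFUS 16 lay above control 12. Its log2 fold change was -0.56 ± 0.12 (unadjusted p = 2.17e-04), and the adjusted p was 0.745 in edgeR and 0.0185 in DESeq2. These genes were singled out after their calls were seen.

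The 1 call of the fit on lean libraries alone was Gdf1, a growth factor of the TGF-beta family (ENSRNOG00000020142). Gdf1 was at 0, 0.378, 0, 0 and 0 CPM in controls and 35.0, 46.0, 25.4, 49.0 and 42.6 CPM with pFUS, so the groups lay far apart. Its fitted log2 fold change was 8.95 ± 2.33, which depends on the prior count because 4 of 5 controls are at 0 and is no bound. The adjusted p was 0.745 with the 4 brain groups in edgeR and 3.83e-04 with the lean groups alone. In obese rats Gdf1 was at 0, 0, 41.1, 0 and 30.4 CPM in controls 1 to 5 and 77.8, 0, 0.962, 22.8 and 0 CPM in pFUS 6 to 10, present in 2 of 5 obese controls above 1 CPM and in 2 of 5 obese pFUS libraries.

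Gdf1 shares its annotated start and end with Cers1, a ceramide synthase (ENSRNOG00000062030), in RefSeq. Cers1 was at 217, 72.2, 87.9, 85.8 and 81.7 CPM in controls and 45.1, 24.6, 51.1, 88.7 and 26.1 CPM with pFUS, with a log2 fold change of -1.16 ± 0.52 (unadjusted p = 0.0364). The sum of both genes was 72.5 to 217 CPM in controls (109 ± 60.9, SD, n = 5) and 68.8 to 138 CPM with pFUS (86.7 ± 28.8, SD, n = 5), and the groups overlapped. Without control 11 the control sums were 72.5, 81.7, 85.8 and 87.9 CPM, against 68.8, 70.6, 76.5, 80.2 and 138 CPM with pFUS. How the counting divided reads that fit both genes was not stated in any source at hand, so the values of both genes are uncertain. The window upstream of the shared start is shown because both genes have the same one, on the minus strand of chr16:19146481-19146730 (GRCr8, RefSeq), with a GC box GGGCGG in capitals, a motif found on either strand in 30.5% of windows of this length.
Cers1 and Gdf1: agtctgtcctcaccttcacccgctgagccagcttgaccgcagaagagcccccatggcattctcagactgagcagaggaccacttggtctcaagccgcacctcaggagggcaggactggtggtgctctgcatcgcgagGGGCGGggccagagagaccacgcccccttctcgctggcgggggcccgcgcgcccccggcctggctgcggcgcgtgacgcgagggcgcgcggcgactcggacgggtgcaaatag

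**Figure D2:**
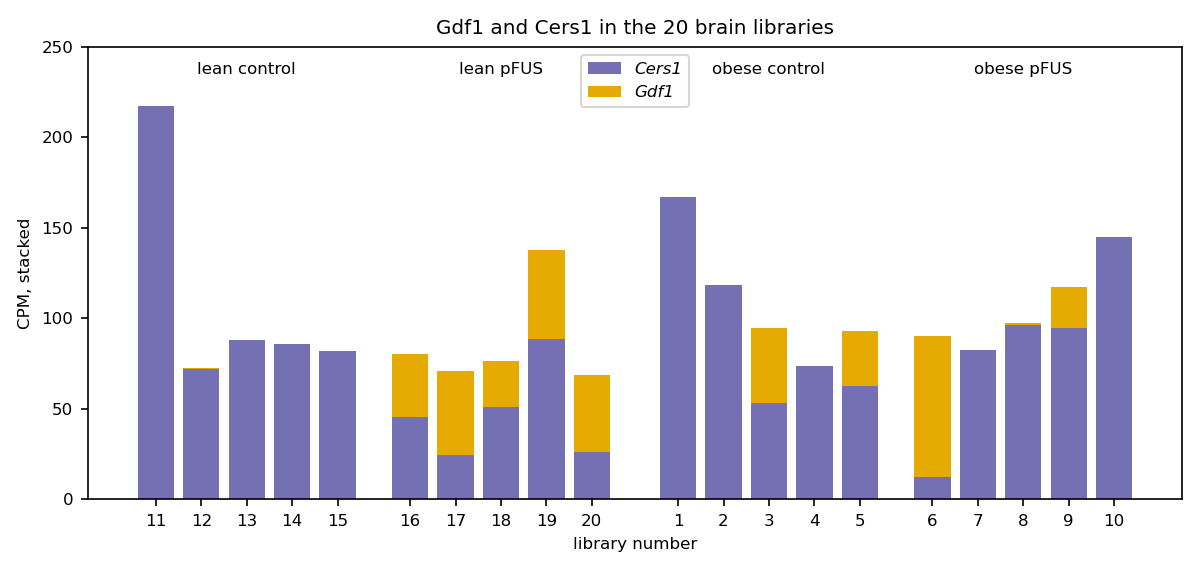
Stacked CPM of Cers1 and Gdf1 in each of the 20 brain libraries at 7 weeks. Gdf1 is above 25 CPM in all 5 lean pFUS libraries and at most at 0.378 CPM in the lean controls, while the sum of both genes runs from 68.8 to 138 CPM with pFUS and from 72.5 to 217 CPM in controls.

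Genes with a usable symbol, a mean of at least 5 CPM in one lean group, groups that did not overlap and an unadjusted p under 0.05 were 23 higher and 21 lower. None passed the adjusted threshold (adjusted p = 0.745 for each named below in edgeR), and those with the smallest p, 10 in each direction, are described. Among those higher was Pbx3 (ENSRNOG00000022162), a homeodomain partner of Hox and Meis factors. Its level was 22.4, 36.4, 19.2, 14.2 and 34.7 CPM in controls and 42.0, 58.1, 64.7, 65.6 and 59.0 CPM with pFUS. The log2 fold change was 1.22 ± 0.36 (unadjusted p = 0.00301), and all 5 pFUS libraries were above control 12, the highest control. Pla2g7, the secreted phospholipase that degrades platelet-activating factor, was at 29.9, 32.5, 18.2, 22.9 and 29.1 CPM in controls and 47.5, 42.6, 73.5, 77.4 and 34.1 CPM with pFUS. Its log2 fold change was 1.10 ± 0.33, with pFUS 18 and 19 highest. Slc7a10, the neutral amino acid transporter that carries D-serine, was at 32.2, 44.0, 21.9, 24.6 and 46.8 CPM in controls and 60.9, 51.1, 54.8, 83.6 and 51.0 CPM with pFUS, a log2 fold change of 0.87 ± 0.33. Prph, the intermediate filament peripherin of peripheral and some central neurons, was at 4.13 ± 1.59 CPM in controls and 14.8 ± 10.2 CPM with pFUS (SD, n = 5), with a log2 fold change of 1.92 ± 0.74.

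Several of the other higher genes act in mitochondria or protein assembly. Timm8b, a chaperone of the mitochondrial intermembrane space, had 68.9 to 94.0 CPM in controls and 94.1 to 177 CPM with pFUS, and a log2 fold change of 0.55 ± 0.18. Slirp, an RNA-binding protein of mitochondria, had 6.51 to 13.5 CPM in controls and 13.6 to 18.9 CPM with pFUS (0.56 ± 0.20). Psmg4, a proteasome assembly chaperone, had 5.73 to 6.34 CPM in controls and 6.47 to 11.2 CPM with pFUS (0.55 ± 0.18). Pxmp2, a channel of the peroxisomal membrane, had 7.74 to 10.0 CPM in controls and 11.3 to 13.6 CPM with pFUS (0.48 ± 0.16), and Metrnl, the secreted protein meteorin-like, had 2.12 to 5.08 CPM in controls and 5.47 to 7.04 CPM with pFUS (0.75 ± 0.26). pFUS 19 was the highest of all 10 libraries for Timm8b and Psmg4, and also for Gdf1, Pbx3, Pla2g7, Slc7a10 and Prph (31.0 CPM). Slirp, Pxmp2 and Metrnl were highest in pFUS 16. The log2 fold change of Timm8b was 0.24 without control 11 and pFUS 19. Most of the 10 higher genes were therefore highest in pFUS 19, a library that stood apart, whose part in the differences was not tested.

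Among the lower genes, Clstn2 (ENSRNOG00000043085), a calsyntenin of the postsynaptic membrane, was at 48.1, 19.3, 42.7, 47.9 and 22.9 CPM in controls and 9.03, 13.8, 18.7, 10.1 and 17.2 CPM with pFUS. Its log2 fold change was -1.39 ± 0.31 with a 95% interval of -2.03 to -0.74 (unadjusted p = 2.46e-04). The lowest control, 12, was only just above the highest pFUS library, 18. Aff3 (ENSRNOG00000018830), a nuclear protein of the AF4 family, was at 38.4, 27.0, 37.3, 44.5 and 28.3 CPM in controls and 20.1, 24.7, 21.6, 16.5 and 26.4 CPM with pFUS, a log2 fold change of -0.68 ± 0.15 (unadjusted p = 2.50e-04). Stard8, a protein with a lipid-binding START domain, was at 28.8, 21.8, 41.6, 42.2 and 30.3 CPM in controls and 17.8, 14.9, 14.8, 13.3 and 19.3 CPM with pFUS (-1.04 ± 0.32). Kcnma1, the large-conductance calcium-activated potassium channel, was at 28.1, 28.8, 36.5, 36.6 and 20.8 CPM in controls and 14.4, 19.9, 19.2, 6.78 and 18.9 CPM with pFUS (-0.94 ± 0.33), lowest in pFUS 19.

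The other 6 lower genes had smaller differences. Chd5, a chromatin remodeller of neurons, was at 281 ± 64.0 CPM in controls and 186 ± 18.6 CPM with pFUS (SD, n = 5), a log2 fold change of -0.58 ± 0.17. Tub, whose loss causes late-onset obesity in mice, was at 46.8, 40.5, 52.7, 54.3 and 41.1 CPM in controls and 37.5, 29.4, 36.3, 32.0 and 37.0 CPM with pFUS (-0.44 ± 0.14). Nrg1, the neuregulin ligand of ErbB receptors, had 4.46 to 6.15 CPM in controls and 2.11 to 4.24 CPM with pFUS (-0.64 ± 0.21). Gpr83, a G protein-coupled receptor found in the hypothalamus and forebrain, had 13.8 to 20.6 CPM in controls and 9.45 to 13.3 CPM with pFUS (-0.47 ± 0.16). Rbfox2, a splicing factor, had 36.8 to 52.6 CPM in controls and 30.6 to 36.6 CPM with pFUS (-0.39 ± 0.14), and Fam160b1 had 13.8 to 17.9 CPM in controls and 9.75 to 13.4 CPM with pFUS (-0.37 ± 0.13). Over the alternatives run, the log2 fold changes of the 10 lower genes kept their sign, from -1.58 for Clstn2 to -0.26 for Rbfox2, and those of the 10 higher genes likewise, with 1.01 to 1.37 for Pbx3 and 0.88 to 1.24 for Pla2g7. The summed cortex and hippocampus genes were lower in the same group, with a median of 1665 CPM in controls and 564 CPM with pFUS, and their part in these differences was not tested.

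**Figure D3:**
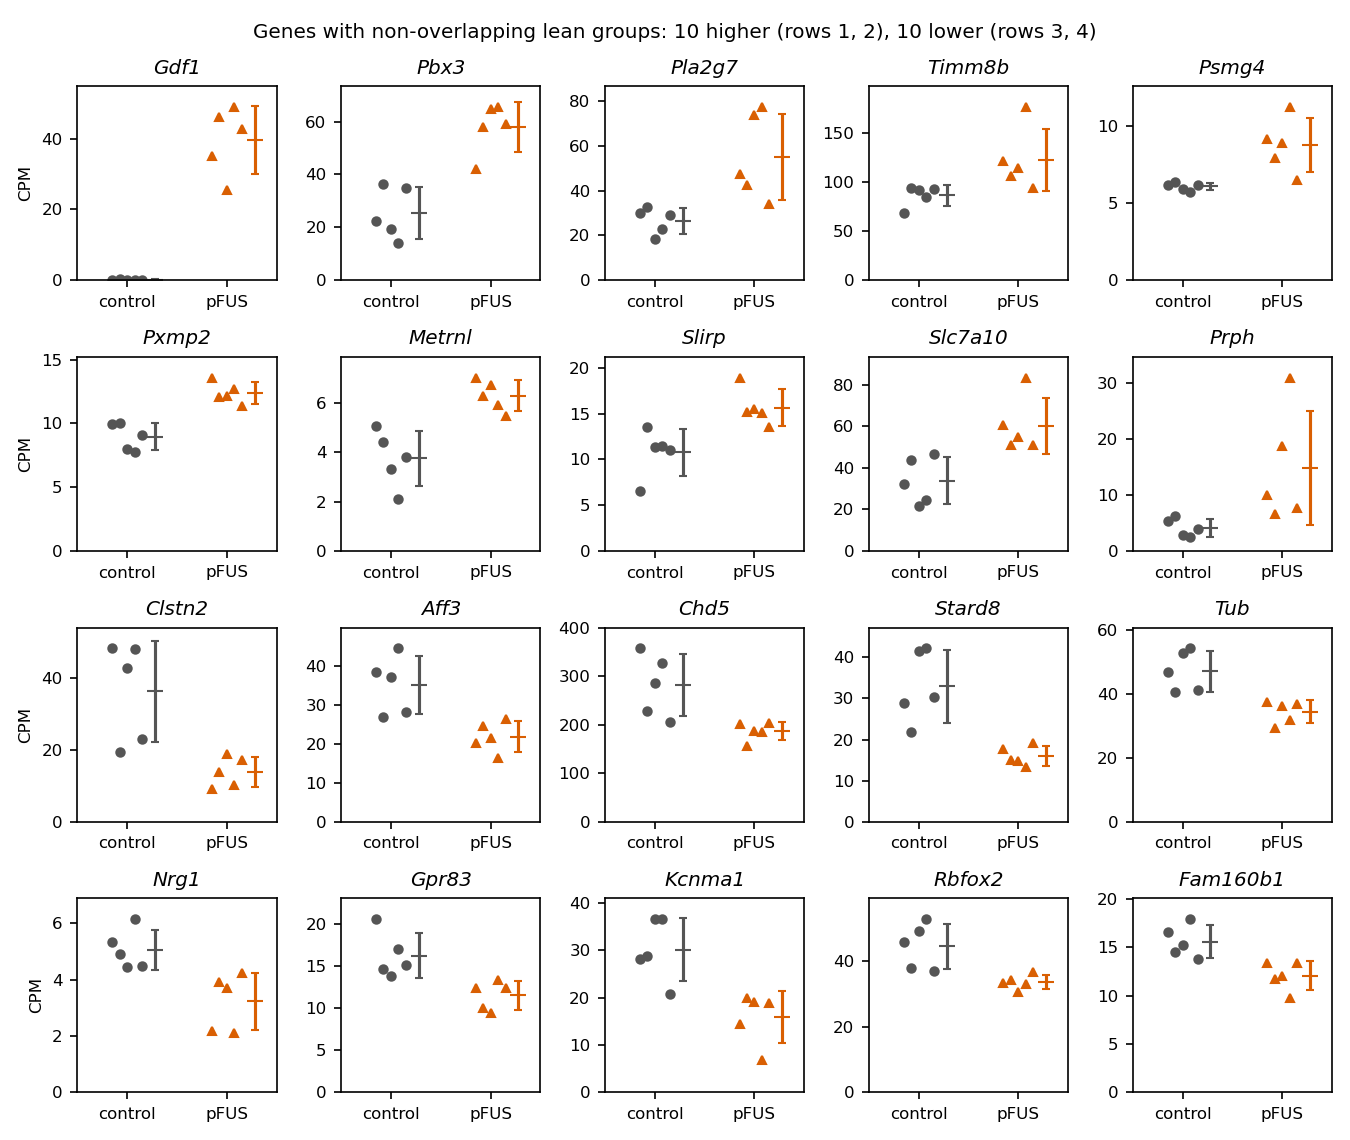
CPM of the 20 named genes in each lean library, with controls as grey circles, pFUS as orange triangles, and bars for the mean with 1 SD (n = 5). The groups do not overlap in any panel because that was a condition of the choice, and none of the genes passes the adjusted threshold.

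The medians of the regional gene lists had opposite signs, and their summed levels overlapped between the groups. Of the 10 cortex and hippocampus genes 10 were lower with pFUS, 6 of them at an unadjusted p under 0.05, against 4.31% of all genes, and the median log2 fold change was -1.12, against 0.0028 over all genes. With 1 library left out that median ran from -1.72 (without pFUS 18, 7 at that p) to -0.93 (without pFUS 17, 6 at that p). Without both control 11 and pFUS 19 it was -0.87, with 9 lower, 2 of them at that p. Over all genes the lower count at that p was 689 of 14921 without pFUS 18 and 439 of 14913 without pFUS 17. It was 464 of 14886 without control 11 and pFUS 19. Tbr1, a transcription factor of deep-layer cortical neurons, was at 52.3, 9.93, 45.4, 64.5 and 28.3 CPM in controls and 6.75, 9.57, 22.9, 9.83 and 15.3 CPM with pFUS (-1.62 ± 0.56). Neurod2 and Emx1, both factors of cortical excitatory neurons, had log2 fold changes of -1.47 ± 0.51 and -1.62 ± 0.61, and Cux2 of upper cortical layers had -0.79 ± 0.30. The groups overlapped for all 4, with control 12 lowest among the controls and within the pFUS range. The 6 striatal genes were all higher (median 0.91), with the D2 dopamine receptor Drd2 at 26.5, 19.3, 3.08, 10.5 and 36.6 CPM in controls and 31.9, 63.1, 11.6, 86.0 and 49.4 CPM with pFUS (1.38 ± 0.64), and the striatal median ran from 0.64 (without pFUS 19) to 1.31 (without control 15) with 1 library left out. Of 15 hypothalamic transcription factors tested, 11 were higher, 0 at an unadjusted p under 0.05, with a median of 0.71. With 1 library left out that median ran from 0.39 (without pFUS 17) to 1.73 (without control 12), and without control 12 there were 14 higher, 2 at that p. Over all genes, 629 of 14889 were higher at that p without control 12. The other 7 of the 22 did not pass the filter on low counts. Without the 5 libraries that lack the 3 peptides, the medians were -1.49 for cortex and hippocampus, 1.14 for striatum and 0.23 for the hypothalamic factors.

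More neuronal genes were lower than higher with pFUS, and more glial genes higher than lower, with none past the adjusted threshold. Of 18 neuronal markers 12 were lower, 4 at an unadjusted p under 0.05, against 4.31% of all genes (median -0.23). That count of 4 was 1 without pFUS 17 and 2 without control 11 or pFUS 16 or 20. Over all genes the lower count at that p was 439 of 14913 without pFUS 17 and 526 of 14930 without control 11. It was 394 of 14881 without pFUS 16 and 705 of 14922 without pFUS 20. Rbfox3, the neuronal nuclear antigen NeuN, was at 135, 50.4, 103, 141 and 89.3 CPM in controls and 47.9, 49.5, 64.9, 68.9 and 59.4 CPM with pFUS (-0.81 ± 0.30). Syt1 had a log2 fold change of -0.70 ± 0.30 and Syp, the vesicle protein synaptophysin, -0.71 ± 0.30. Of 32 glutamate and GABA receptor subunits 26 were lower, 4 at an unadjusted p under 0.05, against the same 4.31% (median -0.34). With 1 library left out the median of the receptors ran from -0.55 (without pFUS 20) to -0.20 (without pFUS 19). Gabbr2, the GABA-B receptor subunit that couples to G proteins, was at 370.0, 207, 413, 413 and 329 CPM in controls and 182, 162, 259, 88.0 and 231 CPM with pFUS (-0.92 ± 0.24). Grin2a and Grin1, subunits of the NMDA receptor, had log2 fold changes of -1.82 ± 0.69 and -0.57 ± 0.26, and the metabotropic glutamate receptor Grm2 -0.94 ± 0.37. None of these list members passed the adjusted threshold, and the cortical genes above were lower in the same libraries.

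All 15 microglial genes tested had positive log2 fold changes (median 0.48), 1 at an unadjusted p under 0.05, against 2.35% of all genes. That gene was Aif1, the microglial protein Iba1, at 9.21, 22.0, 12.0, 13.9 and 16.9 CPM in controls and 27.6, 29.4, 17.6, 27.7 and 16.3 CPM with pFUS (0.71 ± 0.22), where pFUS 18 and 20 lay within the control range. Tyrobp, the adaptor of Trem2, was at 11.4, 11.2, 6.43, 6.79 and 11.3 CPM in controls and 14.8, 14.7, 7.83, 24.1 and 8.71 CPM with pFUS (0.62 ± 0.30). The summed microglial level was 316, 431, 225, 334 and 536 CPM in controls and 623, 584, 260.0, 718 and 342 CPM with pFUS, highest in pFUS 19 and lowest in control 13. The count of 1 at that p was 2 without control 11, 5 without pFUS 20 and 6 without control 15 or pFUS 18. Over all genes, the higher count at that p was 483 of 14930 without control 11 and 514 of 14922 without pFUS 20. It was 425 of 14917 without control 15 and 455 of 14921 without pFUS 18. The median was 0.26 without pFUS 19. It was 0.82 without the 5 libraries that lack the 3 peptides, which leaves controls 11 and 12 against pFUS 16, 17 and 19. In that fit 7 of the 15 were higher at an unadjusted p under 0.05, and 0 were past the adjusted threshold. Over all genes of that fit, 227 of 15266 were higher at that p.

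All 17 oligodendrocyte and myelin genes were likewise higher (median 0.47, 0 at an unadjusted p under 0.05). Mbp, myelin basic protein, was at 9531, 6424, 5925, 6854 and 10999 CPM in controls and 7134, 14891, 11564, 26092 and 9947 CPM with pFUS (0.87 ± 0.42), and pFUS 19 was far above the rest. The summed myelin genes ran from 11369 to 20722 CPM in controls (median 13958) and 13705 to 35216 CPM with pFUS (median 21318). Of 13 astrocyte genes 12 were higher (median 0.34), with the calcium-binding protein S100b at 2252, 2529, 1995, 1674 and 2184 CPM in controls and 2441, 2587, 2767, 4782 and 2413 CPM with pFUS (0.55 ± 0.22). Endothelial and pericyte genes had a median of 0.23 (15 of 17 higher), with Tie1, an endothelial receptor kinase, at 0.33 ± 0.20. All 14 choroid plexus genes were lower (median -0.96, 0 at an unadjusted p under 0.05). Their main product Ttr, the thyroxine carrier transthyretin, was at 1059, 324, 119.8, 10.9 and 2313 CPM in controls and 158, 17.5, 8.91, 113 and 896 CPM with pFUS (-1.70 ± 1.54), a range that rests on controls 11 and 15 and pFUS 20. Without control 15 the choroid plexus median was 0.31. The 10 meningeal and fibroblast genes were all higher (median 0.43), with a median of -0.06 without the 5 libraries that lack the 3 peptides.

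**Figure D4:**
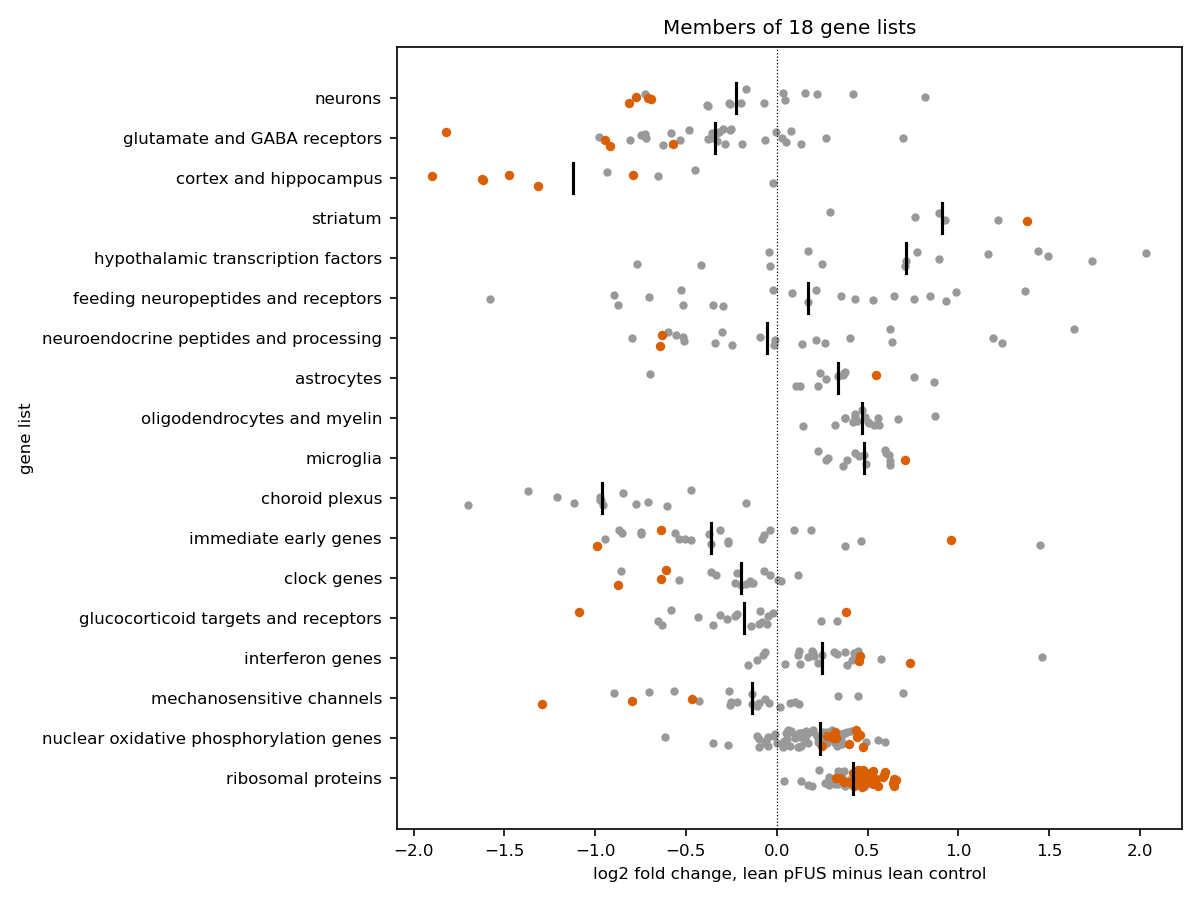
Log2 fold change of each tested member of 18 gene lists, lean pFUS over lean control, with the list median as a black line and members at an unadjusted p under 0.05 in orange. Cortex and hippocampus genes lie to the left of 0 and microglial, myelin and ribosomal genes to the right, and no member passes the adjusted threshold.

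Feeding peptides and their receptors, a list of 29 genes, held 21 genes above the filter, 12 higher and 9 lower with pFUS, 0 at an unadjusted p under 0.05 (median 0.17). Without the 5 libraries that lack the 3 peptides, 8 were higher and 13 lower, with a median of -0.31, and with 1 library left out the median ran from -0.20 (without pFUS 16) to 0.66 (without control 12). Pomc, the precursor of the satiety peptide alpha-MSH, was at 2.30, 26.2, 1.54, 0.742 and 1.95 CPM in controls and 12.2, 3.48, 2.88, 5.15 and 2.16 CPM with pFUS (-0.30 ± 0.77), highest in control 12. Cartpt, the CART precursor, was at 4.21, 29.2, 1.20, 1.17 and 2.69 CPM in controls and 27.1, 17.1, 1.62, 25.0 and 1.62 CPM with pFUS (0.99 ± 0.96). Pmch had a log2 fold change of 1.37 ± 1.88 and Hcrt 0.65 ± 1.59, with 95% intervals of -2.56 to 5.30 and -2.68 to 3.97. Both intervals span several log2 units on each side of 0, and the high values were in control 11 and 12 and pFUS 16 and 17. Tac1, the precursor of substance P, was at 12.8, 34.0, 8.74, 8.06 and 25.5 CPM in controls and 47.8, 49.5, 14.5, 27.6 and 29.8 CPM with pFUS (0.93 ± 0.46). The receptors Npy1r for neuropeptide Y and Cckbr for cholecystokinin had log2 fold changes of -0.90 ± 0.47 and -0.87 ± 0.46. Agrp, the orexigenic antagonist of melanocortin receptors, and the ghrelin receptor Ghsr did not pass the filter.

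Neuroendocrine peptides and the enzymes that process them, 22 of 26 tested, had 9 higher and 13 lower (median -0.05, and -0.25 without the 5 libraries). The 2 at an unadjusted p under 0.05 (against 4.31% of all genes) were both parts of the secretory granule, and that count was 1 without pFUS 17 and 6 without pFUS 18. It was 0 without both control 11 and pFUS 19, with a median of 0.02. Over all genes the lower count was 689 of 14921 without pFUS 18 and 464 of 14886 without control 11 and pFUS 19. It was 439 of 14913 without pFUS 17. Pcsk2, the prohormone convertase PC2, was at 298, 119.8, 283, 332 and 258 CPM in controls and 133, 156, 229.9, 113 and 192 CPM with pFUS (-0.64 ± 0.23). Chgb, chromogranin B, was at 687, 392, 522, 529.7 and 384 CPM in controls and 347, 293, 484, 126 and 394 CPM with pFUS (-0.63 ± 0.27), highest in control 11 and lowest in pFUS 19. Sst, somatostatin, had a log2 fold change of -0.52 ± 0.34, Vip, vasoactive intestinal peptide, -0.80 ± 0.41, and Penk, the enkephalin precursor that is abundant in striatum, 0.64 ± 0.63. Both groups overlapped for all 5.

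**Figure D5:**
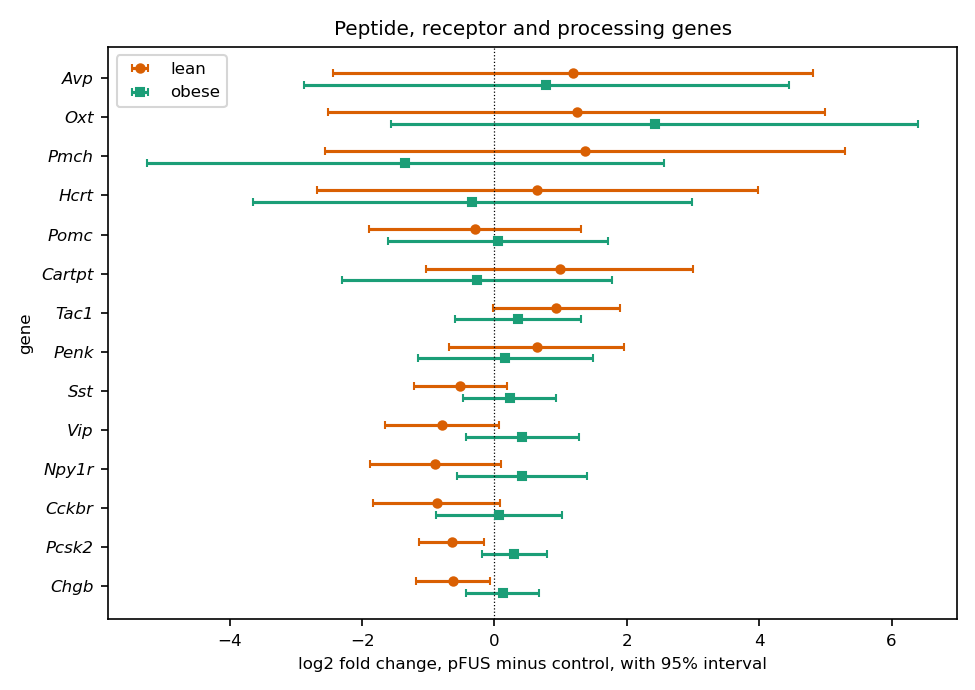
Log2 fold change of peptide, receptor and processing genes with pFUS, with 95% intervals, in lean (orange circles) and obese (green squares) brain, n = 5 against 5 in each. The intervals of Avp, Oxt, Pmch and Hcrt span several log2 units, and in lean brain those of Pcsk2 and Chgb do not reach 0 before adjustment.

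Genes of neuronal activity and of the daily clock were mostly lower. Of 25 immediate early genes 19 were lower, 2 of them at an unadjusted p under 0.05, and 6 higher, 1 at that p (median -0.36). The shares over all genes were 4.31% lower and 2.35% higher. The lower count at that p was 0 without control 14, 1 without control 11 or 13 or pFUS 17 or 20 and 8 without control 12, and the median ran from -0.58 (without control 12) to -0.16 (without control 14) with 1 library left out. Over all genes the lower count moved too, to 351 of 14926 without control 14 and 1042 of 14889 without control 12. It was 526 of 14930 without control 11, 404 of 14923 without control 13 and 439 of 14913 without pFUS 17. Without pFUS 20 it was 705 of 14922. Ier5, an early response gene, was at 72.4, 20.7, 67.6, 125 and 58.7 CPM in controls and 25.4, 24.8, 50.7, 37.4 and 31.4 CPM with pFUS (-0.99 ± 0.45), and the ERK phosphatase Dusp6 was at 23.3, 16.2, 29.7, 50.9 and 36.2 CPM and 23.4, 16.5, 23.3, 18.4 and 17.8 CPM (-0.64 ± 0.25). Maff, a small bZIP factor, was higher but low in level, at 1.59, 1.42, 0.514, 0.955 and 0.814 CPM in controls and 3.08, 1.74, 1.89, 2.18 and 1.39 CPM with pFUS (0.96 ± 0.35). Atf3 had a log2 fold change of 1.45 ± 0.71 that rested on pFUS 16, at 15.6 CPM against at most 2.39 CPM in the other 9 libraries. Without the 5 libraries that lack the 3 peptides, the median of the list was 0.11, with 15 of 25 higher.

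Of 19 clock genes 16 were lower, 3 at an unadjusted p under 0.05, against 4.31% of all genes, with a median of -0.19. The median was -0.06, with 0 at that p, without the 5 libraries that lack the 3 peptides. Over all genes of that fit, 256 of 15266 were lower at that p. Per2, a repressor of the clock loop, was at 64.4, 61.0, 85.4, 119.7 and 80.1 CPM in controls and 55.6, 40.1, 58.9, 32.6 and 76.6 CPM with pFUS (-0.63 ± 0.24). Bhlhe40, the repressor DEC1, was at 83.0, 48.1, 69.1, 107 and 83.3 CPM and 60.4, 41.6, 55.5, 41.9 and 55.3 CPM (-0.61 ± 0.22), and the output factor Hlf had -0.88 ± 0.31. Glucocorticoid targets and receptors had 17 of 20 lower (median -0.18), and a median of 0.10 without those 5 libraries. Fkbp5, the glucocorticoid-induced chaperone that dampens its receptor, was at 58.9, 55.2, 57.6, 67.8 and 54.6 CPM in controls and 45.9, 45.5, 43.7, 38.8 and 54.5 CPM with pFUS, so the groups were separate by a slight margin between control 15 and pFUS 20, with a log2 fold change of -0.35 ± 0.19 (unadjusted p = 0.0720). Zbtb16 had -1.09 ± 0.43, the kinase Sgk1 -0.66 ± 0.34, and Hsd11b1, which regenerates active glucocorticoid, 0.38 ± 0.18.

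Leptin and insulin signalling genes, 22 tested, were 15 lower and 7 higher, 0 at an unadjusted p under 0.05 (median -0.22). Gsk3b, a kinase inhibited by insulin signalling, was at -0.57 ± 0.29 and the receptor Igf1r at -0.41 ± 0.21 on the log2 scale. Channels known to respond to mechanical force were described because ultrasound is a mechanical stimulus. Of 24 tested 17 were lower, 3 at an unadjusted p under 0.05, against 4.31% of all genes (median -0.14). That count was 1 without control 14 and 6 without control 12 or pFUS 19. Over all genes the lower count was 351 of 14926 without control 14, 1042 of 14889 without control 12 and 858 of 14911 without pFUS 19. Kcnk4, the potassium channel TRAAK, was at 16.9, 9.27, 31.4, 42.8 and 30.9 CPM in controls and 7.44, 7.61, 16.4, 7.49 and 14.0 CPM with pFUS (-1.29 ± 0.43), with control 12 within the pFUS range. Trpm4 had a log2 fold change of -0.80 ± 0.31 and Tmem63c -0.47 ± 0.21.

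Interferon genes were mostly higher, 23 of 27, with 3 at an unadjusted p under 0.05, against 2.35% of all genes (median 0.25). The count at that p was 0 without control 14 or pFUS 16 or 17 and 1 without control 13, and 0 without the 5 libraries that lack the 3 peptides or on the lean groups alone. Over all genes the higher count at that p was 148 of 14926 without control 14 and 323 of 14881 without pFUS 16. It was 311 of 14913 without pFUS 17, 189 of 14923 without control 13 and 227 of 15266 without the 5 libraries. It was 194 of 14211 on the lean groups alone. B2m, the light chain of class I histocompatibility molecules, was at 144, 404, 255, 212 and 278 CPM in controls and 437, 377, 339, 292 and 308 CPM with pFUS (0.46 ± 0.20), and Isg15 and Dhx58, both induced by interferon, had 0.73 ± 0.31 and 0.46 ± 0.22. Of 25 inflammatory genes 17 were tested, 13 higher (median 0.22), with the complement component C3 at 0.63 ± 0.31. Without pFUS 16, 9 of the 17 were higher, and the median ran from 0.015 (without pFUS 16) to 0.26 (without pFUS 18) with 1 library left out. Il1b, Il6 and Tnf did not pass the filter. Heat shock genes had 9 higher and 11 lower (median -0.02), with the chaperone Hsph1 at -0.42 ± 0.17 and the mitochondrial Hspe1 at 0.29 ± 0.14, at 20.0 to 24.0 CPM in controls and 24.7 to 27.8 CPM with pFUS. Genes of the integrated stress and unfolded protein responses had a median of 0.09 (13 of 21 higher), with asparagine synthetase, Asns, at -0.41 ± 0.17.

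Genes of the ribosome and of oxidative phosphorylation had mostly positive differences, and of the libraries left out singly pFUS 19 moved both medians the most. All 73 ribosomal protein genes tested were higher, 29 at an unadjusted p under 0.05, against 2.35% of all genes (median 0.42). The list matched 75 gene entries of 69 symbols, so some symbols were counted more than once. On the lean groups alone the ribosomal count at that p was 4, where 194 of 14211 genes were higher at that p. Rps20 was at 64.7, 102, 72.8, 68.3 and 77.8 CPM in controls and 113, 108, 98.4, 185 and 78.2 CPM with pFUS (0.65 ± 0.21). Their sum was 15008, 17203, 14243, 12412 and 13816 CPM in controls and 17958, 17583, 16428, 28013 and 14054 CPM with pFUS, highest in pFUS 19, and without that library 5 of 73 were at that p, with a median of 0.17. Without both control 11 and pFUS 19 the ribosomal count was 1, with 72 higher and a median of 0.17, and left out singly the count was 5 without pFUS 19, 11 without control 14 and 44 without pFUS 20. Over all genes the higher count at that p was 123 of 14886 without control 11 and pFUS 19. It was 202 of 14911 without pFUS 19, 148 of 14926 without control 14 and 514 of 14922 without pFUS 20. Of 81 nuclear genes of oxidative phosphorylation 68 were higher, 10 at an unadjusted p under 0.05, against 2.35% of all genes (median 0.24), among them the complex I subunit Ndufa6 at 0.46 ± 0.18. Without pFUS 19, 42 of 81 were higher, 0 at that p, with a median of 0.01. Without both control 11 and pFUS 19, 69 were higher, 0 at that p, with a median of 0.11. Left out singly, the count at that p was 0 without pFUS 19, 3 without pFUS 18, 4 without control 12 or 14 and 16 without pFUS 20. On the lean groups alone it was 0. Over all genes the higher count at that p was 455 of 14921 without pFUS 18 and 629 of 14889 without control 12. The oxidative phosphorylation list matched 84 gene entries of 82 symbols.

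The remaining lists had few tested members or small medians. Of the genes of cholesterol synthesis and uptake, 15 of 23 were higher (median log2 fold change 0.08). The thyroid hormone receptor Thrb had -0.62 ± 0.41 in a list with 4 of 8 higher (median -0.14). Oligodendrocyte precursor genes, with Bcas1 at 0.68 ± 0.33, had a median of 0.20 over 5 genes. Ependymal and tanycyte genes had 0.23 over 10, thalamic genes -0.22 over 8, blood cell genes 0.17 over 5, and pituitary genes 0.29 over 2 of 10. None of the members of these 7 lists passed the adjusted threshold.

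In obese brain, 0 of 14791 genes passed for pFUS in edgeR (281 at an unadjusted p under 0.05, 1.90%, with 112 or 0.757% higher and 169 or 1.14% lower). The obese groups did not overlap in 82 genes (0.554%), 4 higher (0.027%) and 78 lower (0.527%). Also 0 genes passed for the difference between the lean and the obese effect (774 at an unadjusted p under 0.05, 5.23%). The smallest adjusted p of that difference was 0.0945, shared by Maff and Bcl6b. Maff was at 4.02, 6.37, 4.08, 6.16 and 2.77 CPM in obese controls and 0.761, 1.52, 0.874, 1.92 and 0.900 CPM in obese pFUS libraries, a log2 fold change of -1.89 ± 0.34, against 0.96 ± 0.35 in lean brain. The lean effect exceeded the obese one by 2.85 ± 0.48 for Maff, which DESeq2 called with an adjusted p of 1.73e-04. The named genes were chosen on the lean difference, so their obese values stand here as a description. Those values were -0.28 ± 0.36 for Pbx3, 0.38 ± 0.30 for Clstn2, 0.02 ± 0.15 for Aff3, 0.41 ± 0.20 for Slirp and 0.66 ± 0.33 for Kcnma1. The differences between the effects for Pbx3, Clstn2 and Aff3 were 1.51 ± 0.51, -1.76 ± 0.43 and -0.70 ± 0.21, with adjusted p of 0.918, 0.801 and 0.898 in edgeR.

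Several lists had medians of opposite sign in the 2 lines, each with its own controls. Microglial genes had 14 of 15 lower in obese brain (median -0.23), and 3 of 15 had a higher lean than obese effect at an unadjusted p under 0.05, against 2.04% of all genes. Interferon genes had 24 of 27 lower in obese brain (median -0.22), and 6 had a higher lean effect at that p. Cortex and hippocampus genes had 8 of 10 higher in obese brain (median 0.24), and 3 had a lower lean effect at that p, against 3.19% of all genes. Glutamate and GABA receptors had a median of 0.20 in obese brain, and 5 of 32 had a lower lean effect at that p. Myelin and striatal genes were higher in both lines, with obese medians of 0.38 and 0.64. No list member passed the adjusted threshold for the difference in edgeR.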

How the data were processed

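RNA of 10 lean brain libraries, 5 control and 5 pFUS, was analysed with 10 obese brain libraries in the same fit. Per the labels' protocols, tissue was kept in RNAlater and a stranded mRNA library kit was used for brain. Per the submitters' processing notes, STAR 2.5.3a, RSEM and Rnor_6.0 were used, their settings not being stated. The authors deposited RSEM expected counts for 32623 genes, all whole numbers. How reads that fit overlapping genes or near-identical copies were counted was not stated. No isoform table was used. Members and gene lists were chosen with earlier results of these data known.

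Genes were filtered with filterByExpr (minimum count 10) and tested in edgeR 4.0.16 by the quasi-likelihood test with TMM factors on the 20 libraries in 4 groups, with Benjamini-Hochberg adjustment over 14791 genes and a threshold of 0.05. The standard error is the log2 fold change divided by the square root of F. Totals in the 4 groups were 9193634 to 14282477 counts. No 2 libraries of a lean group were alike within sampling noise (0 of 20 pairs identical, chi-square over its degrees of freedom at least 8.31). The genes named had an adjusted p under 0.05, or else an unadjusted p under 0.05, with a mean of at least 5 CPM in 1 lean group and groups that did not overlap, 10 in each direction by p. Of each list up to 4 members with the smallest p were named, and of the peptide lists also those of the highest level. Cacna1g, Myh9, LOC100910130, Cers1, Bcl6b, Avp, Oxt, Hcrt, Chat and Slc18a3 were named outside that rule, after their values were seen, and a list member that the rule names is not reported here. Results were recomputed with DESeq2 1.42.0, with RLE factors, without the filter, on the lean groups alone and with each library left out. Leaving out control 11 with pFUS 19, or the 5 libraries that lack Avp, Oxt and Pmch, and the list medians under each alternative were added after seeing the data. The procedure was tested on simulated counts. Promoter windows came from RefSeq (GRCr8), a build other than that of the counts, and were matched by symbol. Of the 663 distinct list members matched by symbol, 612 passed the filter, and 1 further list had no match and was not used. R 4.3.3 and Python 3.11.15 were used.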

Additional observations from a re-analysis of the deposited data

Results flagged for a closer look

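Within the lean groups, 36 measures (the 20 named genes, 15 summed marker lists and the total count) were examined in both groups for a library far from the other 4, and 5 of 72 stood out. The cut-off gives about 1 in 20 for normally distributed values, which these measures need not be, so their own chance rate is not known. Gdf1 in control 12 was at 0.378 CPM against 0 in the other 4 controls, a handful of reads, and any level above 0 would have stood out there. The summed hypothalamic transcription factors of control 12 were at 58.6 CPM against 6.15 to 19.4 CPM in the other controls. The summed pituitary genes of control 12 were at 80.0 CPM against 3.65 to 9.20 CPM. The summed ependymal and tanycyte genes of pFUS 16 were at 469.9 CPM against 238 to 273 CPM in the other pFUS libraries. The summed choroid plexus genes of pFUS 20 were at 1064.8 CPM against 31.4 to 226 CPM.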

How the results depend on the processing

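The count of 0 genes past the threshold for pFUS in lean brain was also 0 with RLE factors, without the filter, without control 11 and pFUS 19, without the 5 libraries that lack Avp, Oxt and Pmch, and without any 1 library (0 to 0), and was 3 in DESeq2 and 1 in edgeR on the lean groups alone. The count at an unadjusted p under 0.05 moved from 985 to between 499 (without control 14) and 1671 (without control 12) when 1 library was left out, and was 593 without control 13, 587 without control 11 and pFUS 19, and 483 without the 5 libraries. In obese brain DESeq2 called 8 genes, and for the difference between the effects 4, where edgeR called 0, with and without each library (0 to 0). No paired analysis was possible because the groups compared share no replicate numbers. Of 83 named genes the sign of the log2 fold change turned in 5 under an alternative. Leaving out 1 library gave Atf3 (-0.12 to 1.74), Hcrt (-1.32 to 1.70), Pmch (-0.13 to 2.73) and Pomc (-0.81 to 1.60). List medians that turned sign when 1 library was left out were those of thalamus (-0.37 to 0.17), neuroendocrine peptides and processing (-0.23 to 0.042), thyroid hormone handling (-0.31 to 0.22), heat shock proteins (-0.051 to 0.090), blood cells (-0.064 to 0.40), integrated stress response and unfolded protein response (-0.025 to 0.20), feeding neuropeptides and receptors (-0.20 to 0.66) and choroid plexus (-1.70 to 0.31). Without the 5 libraries, the sign turned for Dusp6 (0.026), ependymal cells and tanycytes (-0.031), meninges and fibroblasts (-0.065), blood cells (-0.22), thalamus (0.15), feeding neuropeptides and receptors (-0.31), immediate early genes (0.11) and glucocorticoid targets and receptors (0.096). Without control 11 and pFUS 19, the sign turned for neuroendocrine peptides and processing (0.023), thyroid hormone handling (0.031) and heat shock proteins (0.039). The cause was not tested. Of these 83 genes, Gdf1 on the lean groups alone and Cacna1g in DESeq2 newly passed the threshold for lean pFUS. DESeq2 also called Myh9 and LOC100910130 there, and Maff, Bcl6b and Myh9 for the obese effect and for the difference. For the difference DESeq2 also called Cacna1g, at -0.76 ± 0.17 (adjusted p = 0.0320). Cacna1g was at 123 to 153 CPM in obese controls and at 134 to 159 CPM in obese pFUS libraries. Intervals limit what 5 libraries against 5 can show, with a median half-width of 0.57 on the log2 scale.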

Other observations

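Cholinergic genes outside the rule for named genes stood among those with the smallest unadjusted p. Slc18a3, the vesicular acetylcholine transporter, was at 1.19, 3.78, 0.857, 0.848 and 1.95 CPM in controls and 7.14, 7.07, 5.67, 14.7 and 2.77 CPM with pFUS, a log2 fold change of 2.19 ± 0.54. Chat, the choline acetyltransferase whose gene holds Slc18a3 within its first intron, was at 0.318, 2.74, 0.771, 0.636 and 0.977 CPM and 6.25, 6.31, 2.16, 6.24 and 2.54 CPM (2.15 ± 0.61). The groups overlapped for both genes, control 12 being the highest control. Their adjusted p was 0.745 in edgeR, and over the alternatives run the lowest was 0.0816 for Slc18a3 and 0.121 for Chat. In obese brain their log2 fold changes were 1.07 ± 0.54 and 0.95 ± 0.59. Both genes were chosen after their values were seen.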
